A study of Mus musculus with 6 samples.

Results

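The genes described here encode the drug efflux pumps and organic anion transporters of the blood-brain barrier, 10 of the 54532 genes in the authors' FPKM table. They were chosen by symbol only: the ABC pumps Abcb1a, Abcb1b, Abcg2, Abcc1, Abcc4 and Abcc5, and the solute carriers Slco1a4, Slco1c1, Slco2b1 and Slc22a8. Transcript levels came from RNA sequencing of cultured BMVECs, the microvascular endothelium of the brain, grown to confluence from vessel fragments of wild-type C57BL/6J mice after a period in puromycin. One group of 3 libraries came from BMVECs given processed mouse IL-36β, written DEVD mIL-36β in the labels, at 100 ng/ml for 24 h. The other 3 libraries came from untreated BMVECs, for which no vehicle and no time in culture are stated, so IL-36β and the 24 h themselves cannot be told apart. Mouse age and sex are not stated, nor whether each library had its own animal or culture. The p-values therefore rest on the spread among 3 libraries a group, which may be technical.

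ABC pumps use ATP to move compounds out of the cell, and at the blood-brain barrier those on the blood-facing membrane return many lipophilic drugs and conjugates to the blood. P-glycoprotein, which rodents make from a pair of genes, and the breast cancer resistance protein BCRP are the best known of them there, and puromycin, the antibiotic used to select the cultures, is itself carried by P-glycoprotein. The solute carriers act without ATP: organic anion transporting polypeptides (OATPs, Slco genes) and organic anion transporters (OATs, Slc22 genes) let conjugated steroids, bile acids, thyroid hormones and anionic drugs cross the membrane, often in exchange for another anion.

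The pumps were abundant in both groups, and none of the 6 passed the test for a difference with IL-36β; their 95% confidence intervals all lay within 0.757-fold to 1.29-fold. Of the 4 solute carriers, Slco1a4 was the most abundant and was lower in each IL-36β library than in each untreated library, at 0.644 ± 0.195 FPKM in IL-36β-treated cells and 1.84 ± 0.353 FPKM in untreated cells (SD, n = 3 each). Slco1a4 missed the threshold in the main test (limma, adjusted p = 0.131) and passed it in DESeq2 (adjusted p = 1.58e-05). Slco1c1, Slco2b1 and Slc22a8 were under the filter on low values and were not tested in limma. A gene was called where the p-value, Benjamini-Hochberg adjusted over the 12618 genes tested, was under 0.05. Testing was limited to genes with at least 0.5 FPKM in at least 3 libraries, and 7 of the 10 genes met this. FPKM is a level per kilobase of gene length, scaled per library.

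The libraries held 15180389 to 19544689 reads, and 1 FPKM in a gene of 1 kb stood for 15.38 to 20.26 reads. The groups differed in Icam1, a leukocyte adhesion receptor, which rose to 163 ± 11.3 FPKM in IL-36β-treated cells, against 56.7 ± 12.2 FPKM in untreated cells (SD, n = 3 each, limma, adjusted p = 0.0284). The receptor chains for IL-36 were present, Il1rl2 at 0.691 and 0.929 FPKM and Il1rap at 5.34 and 5.98 FPKM in IL-36β-treated and untreated cells. All 10 endothelial markers were detected, with a summed level of 2490 to 3120 FPKM in IL-36β libraries and 2390 to 2760 FPKM in untreated libraries. The 4 smooth muscle markers summed to 372 to 823 FPKM in IL-36β libraries and 417 to 1390 FPKM in untreated libraries. Pericyte markers summed to 4.47 to 7.36 and 5.58 to 6.81 FPKM, with Rgs5, Kcnj8, Abcc9 and Vtn below 0.5 FPKM in each library. Fibroblast markers summed to 0.804 to 2.88 FPKM with IL-36β and 0.561 to 1.23 FPKM without, and astrocyte markers to 0.515 to 1.7 FPKM and 0.432 to 1.51 FPKM, with Aqp4, Slc1a3 and Gjb6 at 0. Summed neuronal markers stayed at or below 1.63 FPKM, microglial markers at or below 0.356 FPKM, oligodendrocyte markers at or below 0.266 FPKM and choroid plexus markers at or below 0.158 FPKM in each library. The library names carry letters, and with IL-36β allowed for, libraries lettered D and E (IL-36β replicates 2 and 3, untreated replicate 3) differed from those lettered A and B (IL-36β replicate 1, untreated replicates 1 and 2) in 220 genes, 1.74% of those tested in limma. The labels do not say what the letters stand for.

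Since FPKM is a level per gene length, the order of the genes rests on the lengths the authors used. These were 5480 bases for Abcb1a, 7990 for Abcb1b, 6389 for Abcc4 and 15092 for Abcc1. Coding transcripts of Abcb1a held 4948 distinct 50-base stretches and those of Abcb1b 4306, so the lengths may not match the transcripts equally well. By reads, Abcc1 (6141 in the IL-36β libraries) was above Abcc4 (5010). In both groups Abcb1a was the highest, followed by Abcg2, then by Abcb1b and Abcc4, whose ranges overlapped, then by Abcc1, Abcc5 and Slco1a4. Slco1c1 and Slco2b1 came next with overlapping ranges, and Slc22a8 was last. Each other step of this order separated neighbours whose ranges over 3 libraries did not overlap, in IL-36β-treated and in untreated cells alike. Averaged over the libraries, Abcb1a ranked 915 among the genes tested, with 92.8% of them at or below its level. Abcg2 was at or above 84.7% of the genes tested, Abcc4 75.6%, Abcb1b 75.1%, Abcc1 57.3% and Abcc5 43.6%. Slco1a4 was at or above 15.3%, and the drop from Abcc5 to Slco1a4 marked the border between the pumps and the solute carriers.

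**Figure D1:**
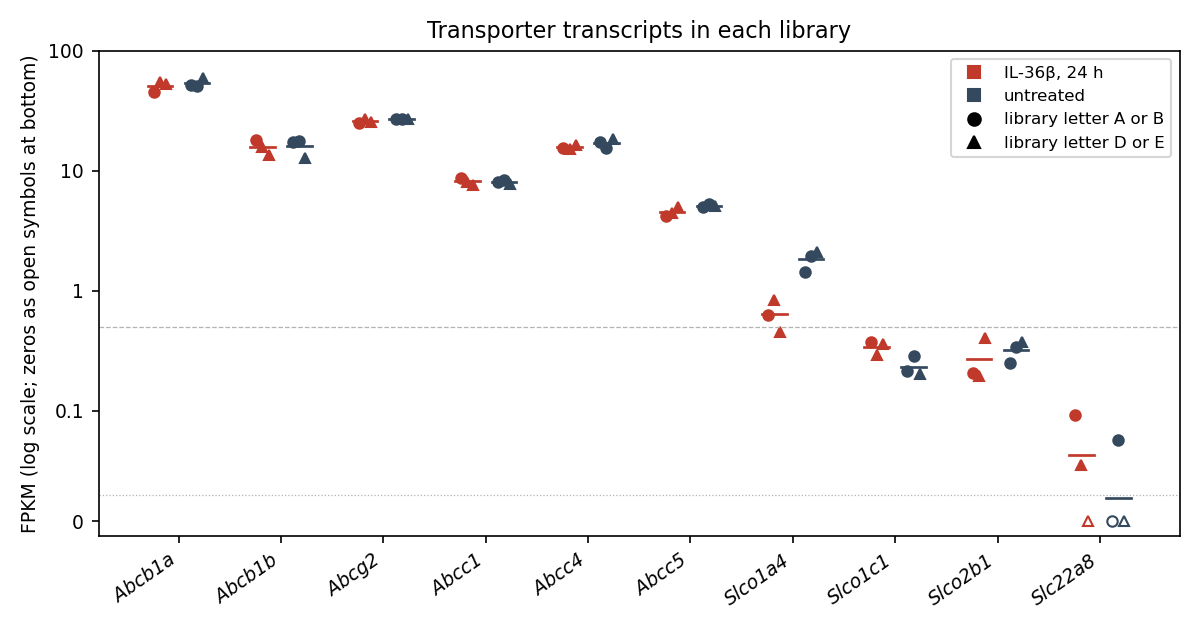
FPKM (log scale) of each of the 10 transporter genes in the 3 IL-36β libraries (red, left) and the 3 untreated libraries (dark, right), with horizontal lines for group means, symbols for the library letters, open symbols for 0, a dashed line at the 0.5 FPKM of the filter and a dotted line above the position used for 0. The 6 pump genes lie above 4 FPKM with interleaved groups, and Slco1a4 is the gene above the filter whose groups are apart.

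P-glycoprotein was the leading pump by transcript level. Abcb1a (chr5:8660077-8748575, plus strand, GRCm38), the main P-glycoprotein gene of mouse brain capillaries, stood at 44.9, 54.7 and 53.2 FPKM in IL-36β replicates 1 to 3 and at 52.3, 51.2 and 59.1 FPKM in untreated replicates 1 to 3. The groups overlapped, with the lowest value in an IL-36β library and the highest in an untreated one. On the log2(FPKM + 0.5) scale the fold change, IL-36β over untreated, was 0.939, and its 95% interval ran from 0.784 to 1.12 (limma, adjusted p = 0.791).

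Abcb1b (chr5:8798147-8866315, plus strand), the companion gene 49.6 kb further along the chromosome, is the form known to appear when rat brain endothelium is cultured. It had 18.2, 15.9 and 13.5 FPKM in the IL-36β libraries and 17.4, 17.8 and 12.8 FPKM in the untreated libraries. Again the groups overlapped, and the low libraries in each group were lettered D or E. The fold change was 0.995, with an interval of 0.768 to 1.29 (limma, adjusted p = 0.993). With the letters as a term its log2 fold change was 0.12, and -0.01 without.

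The ratio of Abcb1a to Abcb1b, whose size rests on the gene lengths above, overlapped between groups and not between library letters. It was 2.47, 3.43 and 3.94 in the IL-36β libraries and 3.01, 2.88 and 4.61 in the untreated libraries. All 3 libraries lettered A or B lay between 2.47 and 3.01, and all 3 lettered D or E between 3.43 and 4.61. On the log2 scale the ratio averaged 1.66 ± 0.34 with IL-36β and 1.74 ± 0.37 without (SD, n = 3 each), a difference of -0.08 (exact permutation test, two-sided, p = 0.8, where the smallest possible p is 0.1). Within the libraries lettered A and B the difference was -0.25, and within those lettered D and E it was -0.32. In a model with letters and IL-36β as terms, libraries D and E differed from A and B by a log2 fold change of 0.22 for Abcb1a (95% interval 0.03 to 0.42) and by -0.37 for Abcb1b (interval -0.61 to -0.13). Neither of these passed over all genes (limma, adjusted p = 0.242 and 0.145). The pair is closely related in sequence: 15.5% of the 50-base stretches of Abcb1a coding transcripts also occur in Abcb1b, and 17.8% of those of Abcb1b occur in Abcb1a, so reads of these stretches could be split between them or dropped, depending on how the authors counted. Gm5106, annotated antisense to Abcb1b, was at 0.0863 FPKM in IL-36β-treated cells and 0.358 FPKM in untreated cells, far under Abcb1b. Summed over the pair, P-glycoprotein transcripts were at 66.8 ± 3.76 FPKM with IL-36β and 70.2 ± 1.51 FPKM without (SD, n = 3 each; exact permutation test, p = 0.3).

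**Figure D2:**
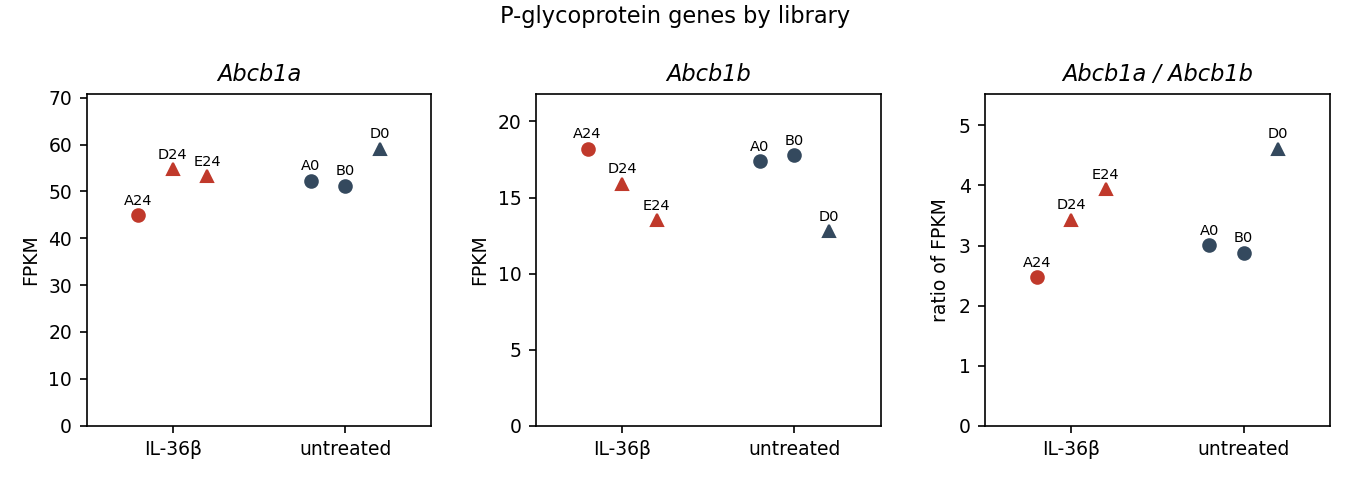
FPKM of Abcb1a and Abcb1b, and the ratio of the 2 levels, in each IL-36β library (red, left) and each untreated library (dark, right), labelled by library name, with circles for letters A and B and triangles for D and E. The ratio is 2.47 to 3.01 in circles and 3.43 to 4.61 in triangles, whichever the group.

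BCRP was next in level and was the most even of the 10 genes among untreated libraries. Abcg2 (chr6:58584523-58695676, plus strand), which encodes this half-transporter for sulfated conjugates, urate and many kinase inhibitors, had 24.9, 27.1 and 25.7 FPKM in the IL-36β libraries. The untreated libraries had 26.8, 27.0 and 27.0 FPKM, inside the range of the IL-36β libraries. Its fold change was 0.962, with an interval of 0.845 to 1.09 (limma, adjusted p = 0.823).

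The multidrug resistance-associated proteins (MRPs) export conjugated and other anionic compounds. Abcc4 (chr14:118482692-118706219, minus strand) encodes MRP4, a carrier of cyclic nucleotides, conjugated steroids and prostaglandins on the blood-facing membrane. It was at 15.4, 15.1 and 16.4 FPKM in the IL-36β libraries and at 17.2, 15.5 and 18.3 FPKM in the untreated ones. The groups overlapped, and the fold change was 0.923 with an interval of 0.79 to 1.08 (limma, adjusted p = 0.694).

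Abcc1 (chr16:14361558-14475737, plus strand) encodes MRP1, which exports glutathione conjugates such as leukotriene C4. Its levels were 8.76, 8.13 and 7.55 FPKM in the IL-36β libraries and 8.02, 8.35 and 7.69 FPKM in the untreated libraries. These groups interleaved, with a fold change of 1.01 and an interval of 0.868 to 1.18 (limma, adjusted p = 0.959). Abcc5 (chr16:20331303-20426394, minus strand) encodes MRP5, a further exporter of cyclic nucleotides, and was the lowest of the pumps. Its levels were 4.17, 4.43 and 4.98 FPKM with IL-36β and 4.96, 5.25 and 5.11 FPKM without, overlapping by a narrow margin. Its fold change was 0.894, with an interval of 0.757 to 1.06 (limma, adjusted p = 0.608).

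Added together, the 6 pumps gave 116, 125 and 121 FPKM in the IL-36β libraries and 127, 125 and 130 FPKM in the untreated libraries. The mean sums were 121 ± 4.50 FPKM with IL-36β and 127 ± 2.50 FPKM without (SD, n = 3 each), a ratio of 0.951 (exact permutation test, two-sided, p = 0.2). Abcb1a supplied 38.6% to 43.8% of this sum in IL-36β libraries and 40.9% to 45.4% in untreated libraries. A p above the threshold does not show that the levels were equal; the intervals above bound the differences these 6 libraries leave room for.

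**Figure D3:**
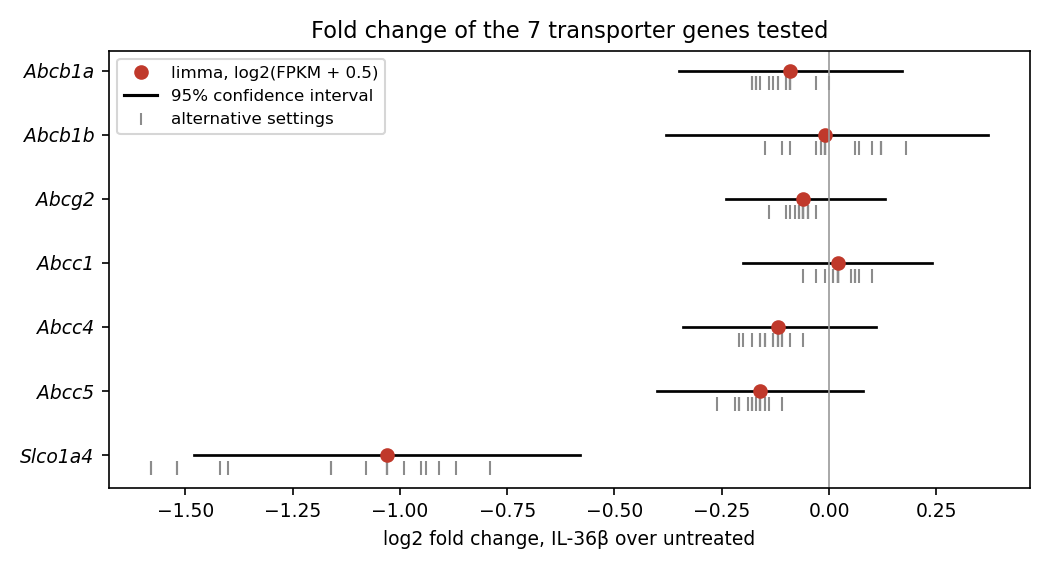
Log2 fold change, IL-36β over untreated, of the 7 transporter genes tested, with red points for the limma estimate on log2(FPKM + 0.5), black lines for its 95% confidence interval and grey ticks for the alternative settings. The 6 pump genes have intervals that include 0, and that of Slco1a4 runs from -1.48 to -0.58.

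Slco1a4 (chr6:141805440-141856199, minus strand) encodes OATP1A4, once called Oatp2, a carrier found on both faces of rodent brain endothelium that moves bile acids, conjugated steroids, digoxin and statins. It was at 0.633, 0.844 and 0.454 FPKM in IL-36β replicates 1 to 3, from 63, 89 and 53 reads. In untreated replicates 1 to 3 it was at 1.44, 1.95 and 2.12 FPKM, from 150, 253 and 209 reads. The groups did not overlap, as in 16.2% of all genes tested. The lowest library was IL-36β replicate 3 and the highest untreated replicate 3, both among those lettered D and E. On the log2(FPKM + 0.5) scale the log2 change was -1.03 ± 0.192 (SE), a fold of 0.489, with a 95% interval for the log2 change of -1.48 to -0.58 (limma, unadjusted p = 0.000866, adjusted p = 0.131). The pseudocount takes up much of a level this low, and the ratio of the mean FPKM was 0.351, which is 2.85-fold lower with IL-36β. The exact permutation test over the 6 libraries gave p = 0.1, the smallest that 3 against 3 allows.

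Tests on read counts differed over Slco1a4. With the reads recovered from FPKM, 205 in the IL-36β libraries and 612 in the untreated libraries, DESeq2 gave a log2 fold change of -1.52 (95% interval -2.07 to -0.97), and Slco1a4 fell in that test (adjusted p = 1.58e-05). The call held when each library was left out of DESeq2 in turn, with changes of -1.77 to -1.32 and adjusted p of 2.77e-06 to 0.00586. The quasi-likelihood test of edgeR gave the same -1.52 and missed the threshold (adjusted p = 0.0582); it passed when the filter was lowered to 10 reads per gene over all libraries (adjusted p = 0.0397), as did 0.37% of the genes then tested. The difference had 1 sign within both sets of libraries, at -0.94 for the letters A and B and -1.21 for D and E on the log2(FPKM + 0.5) scale. With the letters as a term, limma gave -1.08 (adjusted p = 0.0933, with 0.808% of all genes called) and edgeR -1.58 (adjusted p = 0.012, with 1.9% of all genes called). The 4 smooth muscle markers, whose sums overlapped between the groups, gave 0 calls in limma and edgeR. DESeq2, which called 2.06% of all genes tested and 0.793% as lower, called 2 of the 4 lower. These were Cnn1 (16.9 FPKM with IL-36β, 34.0 FPKM without) and Myh11 (3.52 and 8.07 FPKM), and neither was called once the letters were a term. The log2 change of Acta2 was -0.46 and that of Tagln 0.18 in limma. Among the 10 endothelial markers DESeq2 called 1, Cldn5, which was higher at 267 FPKM with IL-36β and 157 FPKM without (adjusted p = 0.0222). That call again ended with the letters as a term (adjusted p = 0.26). With this term DESeq2 instead called Egfl7 higher (log2 change 0.51, adjusted p = 0.0204) and Kdr lower (-0.46, adjusted p = 0.00225), where it called 3.41% of all genes. Kdr was also lower in edgeR with the term (adjusted p = 0.0398), and limma called 0 of the 10. The part of either cell type in the Slco1a4 result was not tested. In bulk RNA, fewer cells that carry a transcript and less of it per cell cannot be told apart.

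To show how Slco1a4 relates to Slco1a5, another OATP1A gene with reads on the same strand, the 250 bases before their transcription starts are printed 5′ to 3′ on the minus strand of GRCm38.p6, from the RefSeq promoter table. The window of Slco1a4 is chr6:141856221-141856470, and that of the more downstream of the Slco1a5 starts is chr6:142278875-142279124. Capitals mark the stretches of at least 10 bases that occur in both windows, found without the alignment, and they stand in the same order in both.
Slco1a4: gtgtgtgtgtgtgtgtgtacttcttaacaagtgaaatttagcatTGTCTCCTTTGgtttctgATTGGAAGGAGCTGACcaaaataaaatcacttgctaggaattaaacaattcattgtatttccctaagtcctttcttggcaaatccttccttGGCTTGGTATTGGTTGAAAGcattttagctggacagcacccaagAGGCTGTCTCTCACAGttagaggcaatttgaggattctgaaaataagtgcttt
Slco1a5: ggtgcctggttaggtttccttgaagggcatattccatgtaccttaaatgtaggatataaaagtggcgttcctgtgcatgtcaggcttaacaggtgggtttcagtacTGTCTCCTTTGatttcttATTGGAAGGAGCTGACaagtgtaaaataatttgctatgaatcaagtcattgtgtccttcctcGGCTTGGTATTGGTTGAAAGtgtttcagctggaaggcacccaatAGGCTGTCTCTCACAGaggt
The local alignment of the windows covered 204 positions, of which 145 were identical (71.1%), and the 4 capitalised runs held 63 bases, the longest 20. Against the other Slco1a5 start the alignment covered 39 positions with 26 identical, and against Slco1c1, which lies 235.3 kb from Slco1a4, it was a 14-base match. Within the Slco1a4 window no match was found on either strand to GGGNNNNNCC (a loose κB pattern, present in 45.8% of 32851 promoter windows of this length), GCGTG (the core of the xenobiotic response element, in 28.2%) or TGACNNNGC (the antioxidant response element, in 10.2%). This says only that these letters are not in the window.

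Slco1a5 is not among the 10 genes and was looked at after its values were known. It encodes Oatp3, which carries bile acids and other organic anions, and lies 378.0 kb beyond Slco1a4 (chr6:142234227-142322981, minus strand). It was at 1.90, 2.35 and 0.990 FPKM in the IL-36β libraries and at 3.42, 4.92 and 3.72 FPKM in the untreated libraries. As for Slco1a4, the groups did not overlap, which held for 16.2% of all genes tested, and IL-36β replicate 3 was the lowest library. The change was 2.06-fold lower with IL-36β on the log2(FPKM + 0.5) scale, with a log2 interval of -1.64 to -0.45 (limma, adjusted p = 0.22). DESeq2 called it lower at a log2 change of -1.21 (adjusted p = 0.00478), a call that ended without untreated replicate 2 (adjusted p = 0.26), and edgeR did not call it (adjusted p = 0.183). Few 50-base stretches are common to the coding transcripts of Slco1a4 and Slco1a5: 2.6% of those of Slco1a4 occur in Slco1a5, and 3.77% of those of Slco1a5 in Slco1a4. The other OATP1 genes Slco1a1, Slco1a6 and Slco1b2 had 0 reads in all 6 libraries, and a count of 0 allows up to 3 reads in a library.

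Slco3a1 went the other way. This gene (chr7:74275419-74554780, minus strand), also outside the 10 and chosen after its values were seen, encodes OATP3A1, a carrier of prostaglandins and thyroxine in human. It was the most abundant Slco transcript measured, at 19.9, 20.2 and 23.8 FPKM in the IL-36β libraries and 13.2, 13.0 and 12.5 FPKM in the untreated libraries. Each IL-36β library was above each untreated one. Groups failed to overlap, in either direction, in 16.2% of all genes tested. The change was 1.62-fold higher with IL-36β, with an interval for the log2 change of 0.46 to 0.93 (limma, adjusted p = 0.0694). Slco3a1 rose in edgeR (adjusted p = 0.0317), in DESeq2 (adjusted p = 4.8e-06) and in limma with the library letters as a term (adjusted p = 0.0498). Within the letters A and B its log2 difference was 0.58 and within D and E 0.78.

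**Figure D4:**
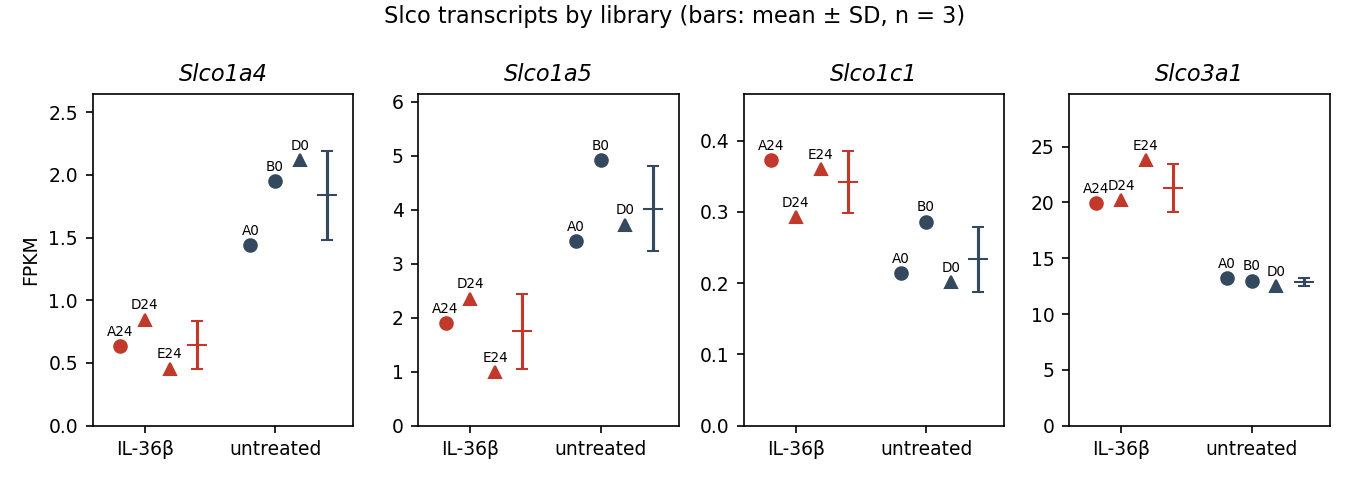
FPKM of Slco1a4, Slco1a5, Slco1c1 and Slco3a1 in each IL-36β library (red, left) and each untreated library (dark, right), labelled by library name, with the mean and SD of 3 libraries beside them. In Slco1a4 and Slco1a5 the IL-36β libraries lie below the untreated ones, and in Slco1c1 and Slco3a1 they lie above.

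Slco1c1 (chr6:141524368-141570177, plus strand) encodes OATP1C1, the thyroxine carrier of rodent brain capillaries, and is widely used as a marker of brain endothelium. In these cultures it was at 0.373, 0.293 and 0.360 FPKM in the IL-36β libraries, from 30, 25 and 34 reads, and at 0.214, 0.286 and 0.201 FPKM in the untreated libraries, from 18, 30 and 16 reads. The groups did not overlap, as for 11.8% of the 23998 genes with any read, although IL-36β replicate 2 and untreated replicate 2 were nearly level. The mean levels, 0.342 ± 0.0428 FPKM with IL-36β and 0.233 ± 0.0457 FPKM without (SD, n = 3 each), gave a ratio of 1.47. With a filter of 10 reads per gene, DESeq2 gave a log2 change of 0.55 (95% interval -0.33 to 1.43, adjusted p = 0.779) and edgeR 0.55 (adjusted p = 0.63), so a difference was not detectable at this depth; DESeq2 called 1.57% of all genes under this filter. The authors' deposited table lists Slco1c1 at a log2 fold change of 0.62 with an unadjusted p of 0.0272 and Slco1a4 at -0.84 with an unadjusted p of 0.0387, both at an adjusted p of 0.999; the other 8 genes are not among its 660. That table also has columns for 4 libraries with no matching sample, and which libraries its fold changes rest on is not stated, so they are not directly comparable with the values from the 6 libraries used here.

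Slco2b1 (chr7:99657804-99711340, minus strand) encodes OATP2B1, a carrier of steroid sulfates and statins. It was at 0.205, 0.194 and 0.406 FPKM in the IL-36β libraries, from 19, 19 and 44 reads, and at 0.248, 0.340 and 0.371 FPKM in the untreated libraries, from 24, 41 and 34 reads. The IL-36β libraries held both the lowest and the highest value, and DESeq2 with the filter of 10 reads gave a log2 change of -0.24 (interval -1.14 to 0.67, adjusted p = 0.927). Slc22a8 (chr19:8591254-8611834, plus strand) encodes OAT3, which takes organic anions and neurotransmitter metabolites out of brain fluid. It had 5, 2 and 0 reads in the IL-36β libraries and 0, 4 and 0 reads in the untreated libraries. At 7 reads against 4 over 3 libraries each, no fold change can be given.

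Set against all genes, the transporters included no call in the main test. Limma called 0 of the 7 tested, where 0.182% of all genes tested were called; at an unadjusted p under 0.05 there was 1 (Slco1a4), where 10.4% of all genes were, and edgeR called 0 of 7, against 0.293% of all genes. DESeq2 called 1 of 7, Slco1a4, where it called 2.06% of all genes and 0.793% as lower. Groups did not overlap in 1 of 7, again Slco1a4, and in 16.2% of all genes tested. Of the 7 log2 fold changes 6 were below 0, with a median of -0.09 beside a median of 0.00 over all genes. The 6 pumps all had log2 changes smaller than 0.2 in size, as did 66.4% of all genes tested, while a log2 change of -1 or lower, as in Slco1a4, occurred in 0.689% of them.

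The wider transporter families gave no call in limma either. Over all genes tested, limma called 0.182%, and 10.4% had an unadjusted p under 0.05. Of 33 other ABC genes, 17 were tested; 0 were called, 2 were lower at an unadjusted p under 0.05, and the median log2 change was 0.00. Abca3 and Abcg1, lipid transporters, were the most abundant, at 23.2 and 19.2 FPKM in IL-36β-treated cells and 22.5 and 17.7 FPKM in untreated cells. Abca1, which exports cholesterol to apolipoproteins, was at 1.39 FPKM with IL-36β and 2.53 FPKM without, and was singled out after its values were seen. It fell in DESeq2 (adjusted p = 0.000604) and not in limma or edgeR (adjusted p = 0.182 and 0.0779). The DESeq2 call held when each library was left out (adjusted p = 9.74e-05 to 0.042). With the library letters as a term Abca1 was lower in DESeq2 (adjusted p = 0.000667) and edgeR (adjusted p = 0.0151), and not called in limma (adjusted p = 0.108). DESeq2 with this term, which called 3.41% of all genes, also called Abca5 lower (2.86 FPKM with IL-36β, 4.05 FPKM without, adjusted p = 0.0413). Abca5, likewise singled out afterwards, was not called in edgeR or limma with the term (adjusted p = 0.12 and 0.26). Of 26 other Slco, Slc22 and Slc47 genes, 9 were tested and 0 called in limma; 2 were higher and 1 lower at an unadjusted p under 0.05, with a median of -0.05. Besides Slco3a1, the most abundant was Slc22a5, the carnitine transporter, at 7.71 FPKM in IL-36β-treated cells and 8.02 FPKM in untreated cells.

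Regulators and partners of the transporters were likewise not called in limma, which called 0.182% of all genes tested. An unadjusted p under 0.05 occurred in 10.4% of all genes tested. Of 18 xenobiotic and hormone receptors and their partners, 12 were tested, with 1 higher and 2 lower at an unadjusted p under 0.05 and a median of 0.12. Nfe2l2, the stress-response factor NRF2, was at 51.7 FPKM with IL-36β and 47.0 FPKM without, and the hypoxia factor Hif1a at 47.4 and 43.0 FPKM. Of 19 AhR and NRF2 target genes, 18 were tested, 1 of them higher and 0 lower at an unadjusted p under 0.05, with a median of 0.14. The ferritin chains Fth1 and Ftl1 led this list, at 6450 and 933 FPKM with IL-36β and 5010 and 799 FPKM without. With the library letters as a term, DESeq2 called 4 of the 18 higher, where it called 3.41% of all genes: Fth1 (log2 change 0.48, adjusted p = 0.00166), Hmox1 (heme oxygenase), Slc7a11 (the cystine carrier) and Pgd (an enzyme of the pentose phosphate pathway). Without the term DESeq2 called 0 of them (Fth1, adjusted p = 0.471), limma called 0 with or without it, and edgeR called Pgd with it (adjusted p = 0.0436) and 0 without. Hmox1, Slc7a11 and Pgd, like Cldn5, Egfl7, Kdr, Cnn1 and Myh11 above, were singled out after their values were seen. Of 34 drug-metabolising and conjugating enzymes, 28 were tested, with 0 higher and 1 lower at an unadjusted p under 0.05 and a median of 0.07. Epoxide hydrolase Ephx1 was at 87.9 FPKM with IL-36β and 96.8 FPKM without, and the glutathione transferase Gstm1 at 55.0 and 45.9 FPKM. Cyp4b1, singled out after its values were seen, was at 6.61 FPKM with IL-36β and 11.3 FPKM without. It fell in DESeq2 (adjusted p = 0.0218) and not in limma or edgeR (adjusted p = 0.227 and 0.2). The DESeq2 call ended without any 1 of 5 libraries, all but IL-36β replicate 3 (adjusted p = 0.0618 to 0.25). With the library letters as a term DESeq2 called it lower (log2 change -0.82, adjusted p = 0.00838), and edgeR and limma did not (adjusted p = 0.0893 and 0.182).

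Of 6 ERM proteins and PDZ scaffolds, which anchor such transporters at the membrane, 5 were tested and 1, Ezr (ezrin), was lower at an unadjusted p under 0.05, with a median of -0.09. Msn (moesin) was at 450 FPKM with IL-36β and 437 FPKM without, and Slc9a3r2 at 133 and 112 FPKM. Of 14 genes of thyroid hormone handling, 7 were tested and 0 reached an unadjusted p under 0.05, with a median of -0.07. Over all genes tested, 10.4% reached it. Slc3a2 and Slc7a5, the chains of the amino acid exchanger LAT1, were at 89.7 and 36.3 FPKM with IL-36β and 93.8 and 37.9 FPKM without.

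**Figure D5:**
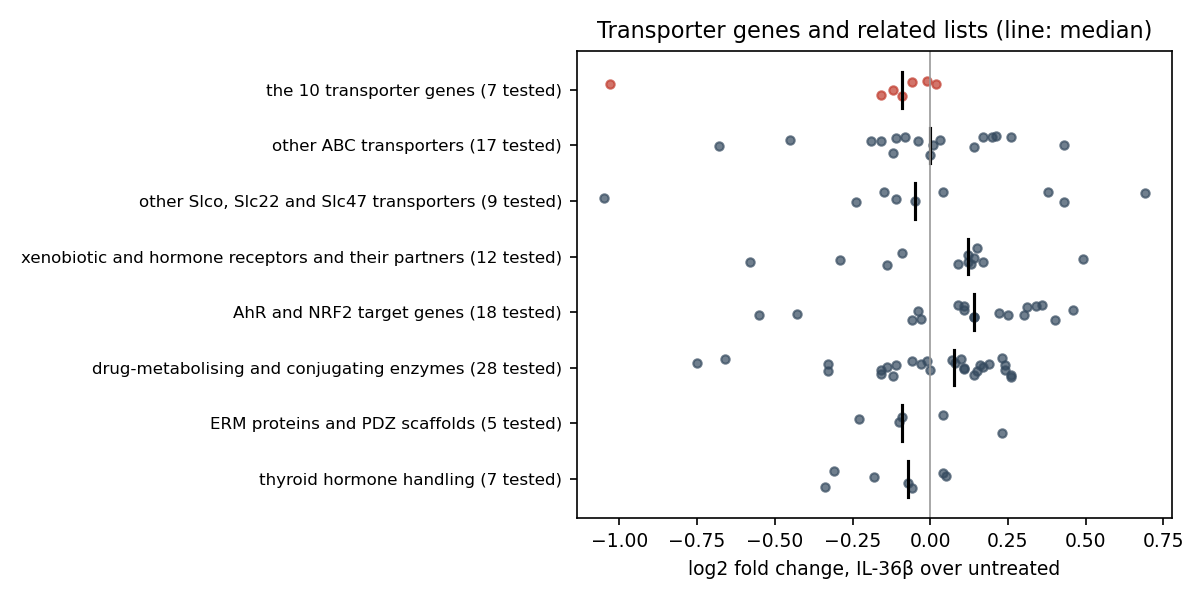
Log2 fold change, IL-36β over untreated, of the tested genes among the 10 transporters (red) and in 7 related lists (dark), each point a gene and each black line a median. Slco1a4 and Slco1a5 lie near -1, Slco3a1 is the point furthest to the right, and medians lie between -0.09 and 0.14.

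The genes whose levels followed each of the main transporters most closely were found by Pearson correlation of log2(FPKM + 0.5) among 11132 genes with a mean of at least 1 FPKM. For Slco1a4 these were Myct1 (r = 0.994), Papd5 (r = 0.992) and Stk24 (r = 0.984). For Abcb1a they were Elac1 (r = 0.993), Ankrd50 (r = 0.992) and Klhl18 (r = 0.992), and for Abcg2 they were Papolg (r = 0.996), Dek (r = 0.995) and Fam199x (r = 0.994). Myct1 was at 22.0 FPKM in IL-36β-treated cells and 26.9 FPKM in untreated cells. The 6 libraries and their scaling are common to both axes, and values this high are a description of the closest of many genes.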

How the data were processed

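RNA was made into libraries with a stranded mRNA kit and run on a NextSeq instrument, per the labels' protocols. Builds and tools in the submitters' processing notes are GRCm38, DESeq2 1.38.3, featureCounts, StringTie, HISAT2 2.05 and fastp, with no roles, and whether counting used strand is not stated. The authors deposited FPKM for 54532 genes. For 660 genes they deposited raw counts, normalized counts (a signal scaled per library), log2 fold changes and p-values, with a gene ontology table of p-values. The table of 660 genes also carries 8 per-library columns for 4 libraries with no matching sample label, which were left out. Deposited FPKM gave whole reads in 100% of values (within 0.01), equal to the deposited counts in all 660 genes.

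Differences were tested with limma 3.58.1 in R 4.3.3 (trended prior, two-sided) on log2(FPKM + 0.5), which understates changes of low genes; edgeR 4.0.16 (quasi-likelihood) and DESeq2 1.42.0 were run on the recovered reads as alternatives. Groups came from the titles. The genes, lists, rule and tests were chosen with earlier results of these data known. All 10 genes were named, and from each list those called in limma or otherwise the 2 most abundant; for Slco1a4, Abcb1a and Abcg2 the 3 genes most alike were added, and Icam1, Il1rl2 and Il1rap as checks. Alternatives were other pseudocounts, filters, scalings and blocks and leaving out each library. Chosen later, with the data seen, were edgeR and DESeq2 with library letters as a term, DESeq2 without each library, the 10-read filter and the fits of Slco1a5 and Slco3a1.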

Additional observations from a re-analysis of the deposited data

How the results depend on the processing

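No pump passed under any of the 19 alternatives run for each, and Abcb1a, Abcg2, Abcc4 and Abcc5 stayed at or below 0. Abcb1b turned positive with the replicate block by library letter (0.18) and with the letters as a term in limma, edgeR and DESeq2 (0.12 each), and ran from -0.15 to 0.10 when each library was left out. Abcc1 was -0.06 as TPM, a scale that moves the median of all genes by -0.082, and -0.03 to 0.07 without each library. Slco1a4 was lower under all 19, from -1.58 to -0.79, and passed in 3: DESeq2 (-1.52) and, with letters as a term, edgeR and DESeq2 (-1.58 each). Without each library in limma it was -1.16 to -0.91 (adjusted p = 0.16 to 0.436). Slco1c1, 0.20 on the log2(FPKM + 0.5) scale, was 0.41 at a pseudocount of 0.1, 0.31 as TPM and 0.55 in edgeR and DESeq2. The difference in the log2 ratio of Abcb1a to Abcb1b, IL-36β minus untreated, ran from -0.23 to 0.13 without each library.

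The count of genes called, 23 in limma, was 0 with no filter (1751 at an unadjusted p under 0.05), 15 as TPM, 78 with the block by library letter, 102 with letters as a term, 37 in edgeR, 260 in DESeq2, 240 and 430 in these with letters as a term, and 2 to 8 without each library. The numbers in the titles gave 13 with the replicate block. Once group means were subtracted, what remained correlated at 0.207, -0.141 and 0.211 between same-numbered libraries. For same-lettered libraries the values were 0.207 (A) and 0.275 (D), and for other pairs -0.455 to 0.388. Titles and letters disagree for replicates 2 and 3, and the main limma fit treated all libraries as unpaired. The cause of the changes in the count of genes called was not tested. Low reads limit Slco1c1, Slco2b1 and Slc22a8; intervals assume libraries vary alike.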
